A study of Rattus norvegicus with 10 samples.

Results

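The collagen genes of the rat kidney were taken as the protein-coding genes of the authors' expression table whose symbol has the form of a collagen chain, such as Col1a1. The rule used the symbol and the gene type and no measured value. It gave 43 of the 32545 genes in the table, with 42 distinct symbols, since Col23a1 is listed under 2 identifiers. All 43 had a read in at least 1 library, 37 had a mean of at least 0.1 FPKM and were tested, and 24 had a mean of at least 1 FPKM. FPKM is the number of sequenced fragments per kilobase of gene length, scaled to a size set for each library, so levels of different genes are compared per length.

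RNA from the kidney of PCK rats, a model of autosomal recessive polycystic kidney disease with a mutation in Pkhd1, was sequenced in 5 males and 5 females, with 1 library per rat. The strain, PCK/CrljCrl-Pkhd1pck/Crl, and its mutation were shared by both groups, and no rats without cysts were sequenced, so the comparison is between sexes within the disease model. The labels give an age of 12 to 14 weeks and the tissue as kidney, while the study's methods give an age 2 weeks lower and snap-frozen renal cortex. The methods describe littermates of 2 litters that had different parents, and the litter of each rat was not used here.

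Collagens are proteins of the extracellular matrix in which 3 chains wind into a triple helix. Fibrillar collagens form the banded fibrils of the interstitium, type IV collagen forms the sheet of the basement membrane, and the other classes decorate fibrils, link them to basement membranes or span the plasma membrane. In the kidney, type I and type III collagens are produced mainly by fibroblasts and pericytes and accumulate in fibrosis, the network of type IV chains 1 and 2 lies in most basement membranes, and the network of chains 3, 4 and 5 is made by podocytes for the glomerular filter.

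The promoters of the members on which the results below turn most are shown first. They are RefSeq windows of the rat build GRCr8, from 250 bases before to 50 bases after the start of each gene, and 33 of the 42 symbols had such a window. Col4a1 and Col4a2, whose ratio was nearly constant over the libraries, are transcribed away from each other, and their windows overlap. The Col4a1 window lies at chr16:84885347-84885646 on the plus strand, and the capitals mark the 176 bases it shares with the Col4a2 window on the other strand.
Col4a1: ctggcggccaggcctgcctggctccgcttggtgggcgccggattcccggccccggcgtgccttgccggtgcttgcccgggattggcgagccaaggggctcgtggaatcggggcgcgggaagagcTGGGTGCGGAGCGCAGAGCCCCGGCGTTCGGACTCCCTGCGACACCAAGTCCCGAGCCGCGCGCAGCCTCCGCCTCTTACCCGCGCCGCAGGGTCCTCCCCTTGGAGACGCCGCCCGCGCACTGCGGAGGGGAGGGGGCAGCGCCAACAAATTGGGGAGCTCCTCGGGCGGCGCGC
Col4a4, the chain set against Col4a1 in a ratio, has its own divergent partner, Col4a3. The Col4a4 window lies at chr9:91323528-91323827 on the minus strand, and the capitals mark the 88 bases it shares with the Col4a3 window.
Col4a4: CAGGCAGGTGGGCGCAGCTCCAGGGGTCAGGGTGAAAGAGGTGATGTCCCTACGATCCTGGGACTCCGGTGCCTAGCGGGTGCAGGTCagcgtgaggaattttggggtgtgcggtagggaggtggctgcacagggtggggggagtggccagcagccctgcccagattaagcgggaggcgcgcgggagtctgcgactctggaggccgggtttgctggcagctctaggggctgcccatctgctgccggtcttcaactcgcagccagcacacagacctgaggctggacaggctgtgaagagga
Col24a1 and Col17a1 were the 2 members that rose in females at an adjusted p of at most 0.05 (limma). The Col24a1 window lies at chr2:236872384-236872683 on the plus strand and the Col17a1 window at chr1:256518808-256519107 on the minus strand. The capitals mark matches on either strand to motifs that were searched letter for letter. The core promoter motifs were the TATA box, read as TATAAA, the CCAAT box, read by the letters of its name, and the GC box that Sp1 binds, read as GGGCGG. The hormone motifs were the half-site of the estrogen receptor, read as AGGTCA, and that of the androgen receptor, read as AGAACA. No matches overlapped each other in these 2 windows.
Col24a1: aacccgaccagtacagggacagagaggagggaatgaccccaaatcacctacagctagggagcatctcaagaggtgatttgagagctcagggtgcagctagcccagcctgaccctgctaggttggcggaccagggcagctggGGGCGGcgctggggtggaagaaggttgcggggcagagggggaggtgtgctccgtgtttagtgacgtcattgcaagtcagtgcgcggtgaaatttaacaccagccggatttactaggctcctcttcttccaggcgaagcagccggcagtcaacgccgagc
Col17a1: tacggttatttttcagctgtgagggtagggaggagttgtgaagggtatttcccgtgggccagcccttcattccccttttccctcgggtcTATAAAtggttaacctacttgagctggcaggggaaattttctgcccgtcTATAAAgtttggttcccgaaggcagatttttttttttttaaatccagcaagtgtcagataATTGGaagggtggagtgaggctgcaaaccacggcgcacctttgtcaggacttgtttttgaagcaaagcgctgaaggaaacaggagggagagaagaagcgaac

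In the Col24a1 window the only match was a GC box beginning 109 bases before the start. The Col17a1 window held 2 TATA boxes, beginning 161 and 112 bases before the start, and a CCAAT box on the other strand. Neither window held either half-site letter for letter. Over the 33 collagen windows, 18 held a GC box (54.5%) against 34.9% of the 27457 promoters in the reference, and 11 held a CCAAT box (33.3%) against 37.7%. A TATA box was present in 4 collagen windows (12.1%) against 14.3% of all promoters. The estrogen half-site was found in 3 (9.09%) against 15.7%, and the androgen half-site in 5 (15.2%) against 20.1%. These are matches of letters and were not tested as sites.

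Between 13912569 and 20285911 reads per library fell on genes, and dividing each FPKM by the value of 1 read gave a value within 0.01 of a whole read for 100% of the values above 0. Collagen genes took 42978 to 80508 reads in males and 32104 to 46677 in females. Of the reads outside the mitochondrial genome, this was 0.341 to 0.469% in males and 0.224 to 0.336% in females, with no overlap. Female 2 stood apart, with 26.8% of its reads on the mitochondrial genome and 12.9 FPKM in summed urothelial markers, against at most 0.813 FPKM in any other library. Female 4 had the lowest level of its sex in 23 of the 37 tested members, and male 2 in 18. Main counts are therefore also given without female 2 and without female 4.

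Most collagen genes had lower mean levels in females, and a pair had much higher ones. Of the 37 tested, 28 had a negative log2 fold change (female minus male, on log2(FPKM + 0.1)) and 9 a positive one. Their median was -0.55, against -0.007 over all 17631 genes tested. At an adjusted p of at most 0.05 (limma, Benjamini-Hochberg over all genes tested), 3 members fell in females, Col3a1, Col11a1 and Col15a1, which is 8.11% of the members against 1.14% of all genes tested. In the same test 2 members rose, Col24a1 and Col17a1, or 5.41% against 1.26%.

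With a log2 fold change of at least 1 required as well, 2 members were lower, Col3a1 and Col15a1, which is 5.41% of the members against 0.698% of all genes tested, and 2 were higher, Col24a1 and Col17a1, or 5.41% against 0.618%. At an unadjusted limma p under 0.05, 21 of 37 members (56.8%) were lower in females, against 8.07% of all genes tested, and 2 were higher, against 7.67%. The FPKM of all 5 females lay below that of all 5 males for 10 members (27.0%), against 2.60% of all genes tested. They lay above for the same pair, against 2.50%.

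In the table's build, Rnor_6.0, Col24a1 (ENSRNOG00000014143) spans chr2:251200686-251434932 and Col17a1 (ENSRNOG00000012110) spans chr1:267417459-267463705. Of the members that fell, Col3a1 (ENSRNOG00000003357) spans chr9:52023295-52059217, Col11a1 (ENSRNOG00000023148) spans chr2:216863428-217056523 and Col15a1 (ENSRNOG00000039197) spans chr5:64476317-64542645. Each value counts reads over the whole gene, so exons and isoforms are not resolved.

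Without female 2, 10 members had an adjusted p of at most 0.05 and 7 passed both thresholds, in place of 5 and 4. Without female 4, these counts were 7 and 3. Those with an unadjusted p under 0.05 were 22 without female 2 and 21 without female 4, in place of 23. The shares over all genes tested were not computed for these refits, so the changes cannot be read as particular to collagens.

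**Figure D1:**
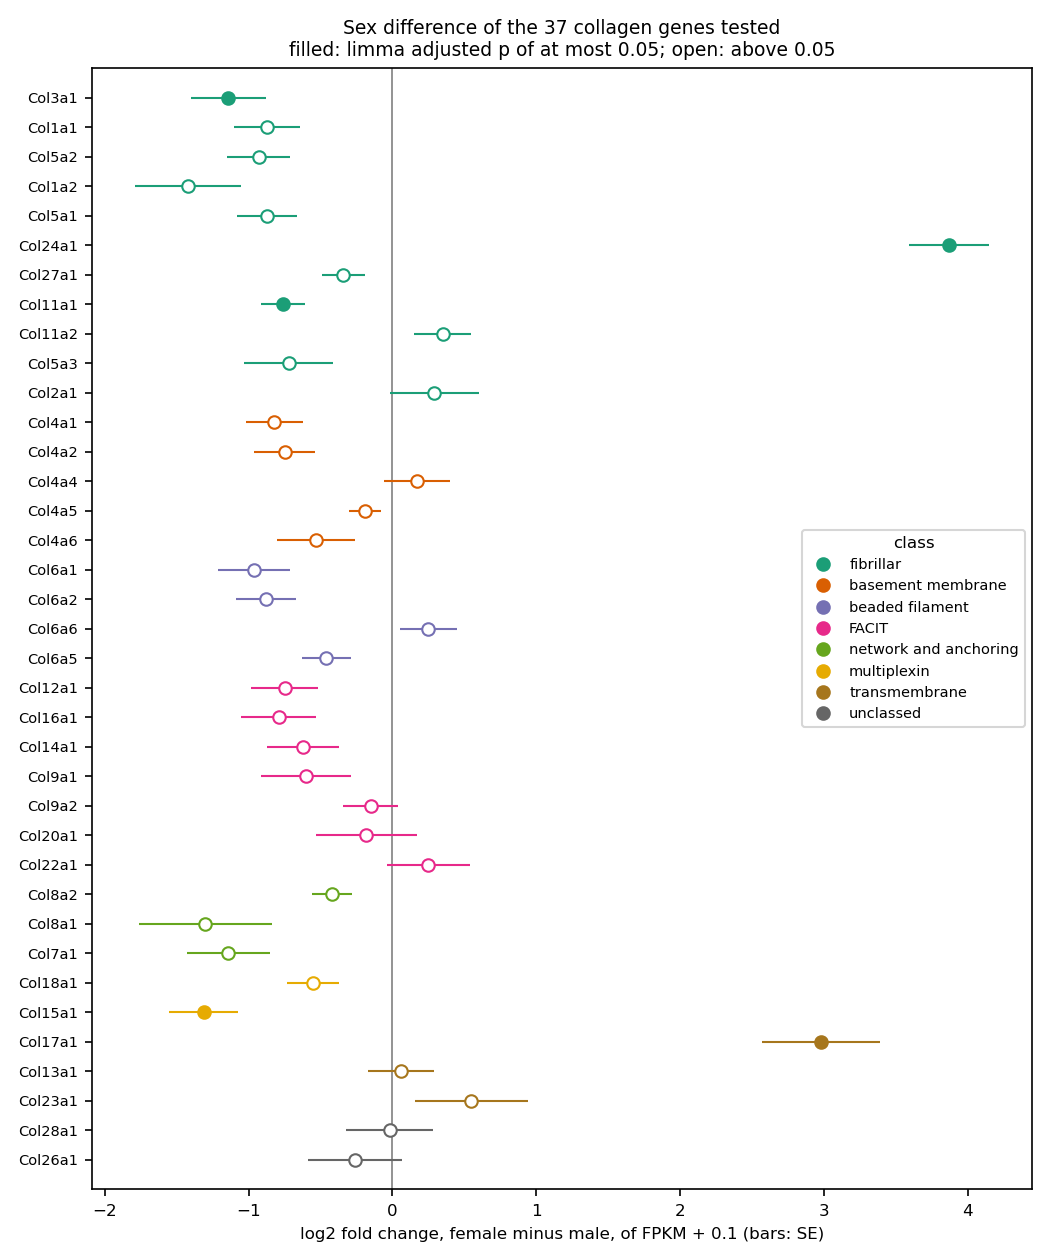
The log2 fold change (female minus male, FPKM + 0.1) of the 37 tested collagen genes is on the horizontal axis, with bars for the SE, 1 gene per line and colours for the class. Filled points mark the 5 genes with a limma adjusted p of at most 0.05, of which Col24a1 (3.87) and Col17a1 (2.98) lie far to the right and 28 of 37 points lie left of 0.

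The fibrillar class held 11 members, all tested. Its summed level was 161 ± 21.4 FPKM in the males and 92.4 ± 27.3 FPKM in the females (SD, n = 5 per sex). The males lay between 146 and 198 FPKM and the females between 49.9 and 123 FPKM, so the ranges did not overlap. Of the 11 members, 8 (against 8.07% of all genes tested) had an unadjusted limma p under 0.05 and were lower in females, and 1 (against 7.67%) was higher. The median log2 fold change was -0.76.

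Col3a1, the chain of type III collagen, was the fibrillar chain with the highest level. It stood at 104, 72.8, 75.7, 74.1 and 82.5 FPKM in males 1 to 5 and at 40.3, 47.1, 58.2, 18.3 and 33.6 FPKM in females 1 to 5. Every male was above every female, and female 4 was the lowest. The male mean was 2.07 times the female mean, with a log2 fold change of -1.14 (SE 0.26, limma adjusted p = 0.0477). This call was narrow: the adjusted p rose above 0.05 when any male, female 1 or female 5 was left out, and reached 0.118. It was also above 0.05 with no filter on low values, quantile normalization, eBayes without trend or scaling to reads outside the mitochondrial genome. Without female 4 the log2 fold change was -0.88, short of the fold threshold.

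Type I collagen, the main protein of scar and tendon, is built from chains of Col1a1 and Col1a2. Col1a1 was at 38.5, 24.5, 31.5, 25.7 and 24.2 FPKM in the males and at 14.3, 21.7, 22.5, 9.87 and 12.7 FPKM in the females. The sexes did not overlap, though male 5 and female 3 were close. Col1a2 was at 18.4, 18.3, 20.4, 13.9 and 12.8 FPKM in the males and at 9.90, 4.70, 13.0, 2.58 and 5.43 FPKM in the females, where female 3 lay just above male 5. Their log2 fold changes were -0.87 (SE 0.23) and -1.42 (SE 0.37), with limma adjusted p of 0.0821 and 0.0777, so neither passed the threshold. By an exact permutation test, two-sided, on mean FPKM, p was 0.00794 for Col1a1 and 0.0159 for Col1a2. With 5 against 5 rats, 0.00794 is the smallest p that this test can give, and these single p values are not corrected for the number of genes.

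Type V and type XI collagens sit inside larger fibrils and set their width. Col5a2 was at 13.5 to 18.6 FPKM in males (median 15.8) and at 4.51 to 11.4 FPKM in females (median 9.74). Its values were 18.6, 13.5, 15.5, 15.8 and 16.3 FPKM in males 1 to 5 and 11.4, 9.74, 10.3, 4.51 and 7.37 FPKM in females 1 to 5. Col5a1 was at 9.29, 6.35, 8.57, 8.99 and 6.48 FPKM in the males and at 5.10, 4.85, 5.29, 2.48 and 4.26 FPKM in the females. Both were separate between the sexes (exact permutation p = 0.00794 for each), but their limma adjusted p of 0.0561 and 0.0581 lay just above the threshold.

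Col11a1 was at 3.50, 3.09, 3.45, 3.06 and 3.09 FPKM in the males and at 2.01, 2.15, 2.39, 1.44 and 1.51 FPKM in the females. The males were close to each other, and all females were lower. It fell by 0.76 on the log2 scale (SE 0.15, limma adjusted p = 0.0248). The adjusted p rose above 0.05, to at most 0.0729, when any male or female 5 was left out.

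Among the scarcer fibrillar chains, Col5a3 was at 0.343, 0.649, 0.275, 0.851 and 0.507 FPKM in the males and at 0.286, 0.340, 0.323, 0.140 and 0.239 FPKM in the females, with overlap. Col11a2, the partner of Col11a1 in type XI collagen, had its higher mean in females, at 0.545 ± 0.0807 FPKM (SD, n = 5) against 0.407 ± 0.0792 FPKM (SD, n = 5). Its values were 0.298, 0.512, 0.429, 0.370 and 0.423 FPKM in the males and 0.501, 0.428, 0.602, 0.565 and 0.628 FPKM in the females. The exact permutation p was 0.0476 for each of these genes, and the limma adjusted p was 0.283 and 0.443. With 1 library left out, the exact p rose above 0.05 in 8 of 10 cases for Col5a3 and in 7 for Col11a2. Col27a1 had means of 5.13 and 4.06 FPKM in males and females, and Col2a1, the cartilage collagen, had 0.103 and 0.144 FPKM from 4 to 17 reads per library.

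Col24a1, a minor fibrillar collagen known from developing bone and cornea, went the other way. It was at 0.670, 0.504, 0.479, 0.407 and 0.526 FPKM in males 1 to 5 and at 12.8, 7.56, 5.47, 6.38 and 15.7 FPKM in females 1 to 5. All males were low and alike, and the females differed among themselves, with females 1 and 5 the highest. The female mean was 18.5 times the male mean, from at most 42 reads in any male and at least 375 in any female. It rose by 3.87 on the log2 scale (SE 0.28, limma adjusted p = 2.01e-05), the highest log2 fold change of the 37 tested members, and leaving out any single library gave 3.66 to 4.04. In females Col24a1 stood above Col5a1 and Col11a1 in mean FPKM, while in males it stood below both.

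**Figure D2:**
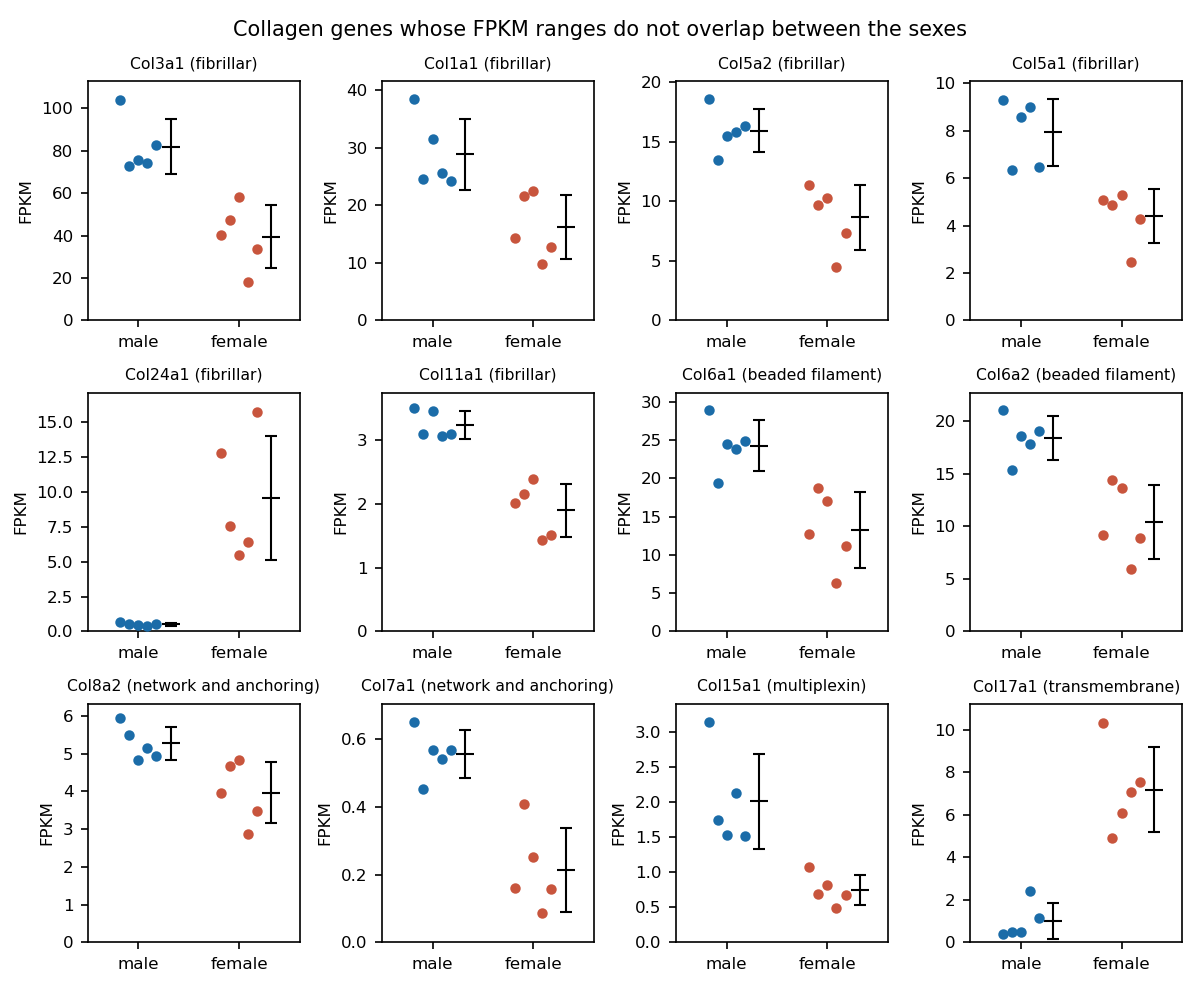
FPKM (vertical axis, from 0) of the 12 collagen genes whose ranges do not overlap between the sexes, with 1 point per rat and the mean ± SD beside the points (n = 5 per sex). In 10 panels all males lie above all females, and in Col24a1 and Col17a1 all females lie above all males.

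Markers of fibroblasts, the main source of these chains, did not pass the test. All 8 markers had a negative log2 fold change (median -0.30), 3 of them had an unadjusted p under 0.05 (lower in females, against 8.07% of all genes tested), and none had an adjusted p of at most 0.05 by limma. Their summed level was between 234 and 334 FPKM in the males and between 123 and 294 FPKM in the females, lowest in female 4, with overlap, and none of the 8 was at 0. Lum was the 1 marker with a higher mean FPKM in females (1.02 against 0.847). The 8 leukocyte markers were likewise all negative, with sums of 71.9 to 119 FPKM and 35.8 to 92.8 FPKM, and 7 of 8 smooth muscle and pericyte markers were negative, with sums of 185 to 232 FPKM and 89.5 to 285 FPKM. Their part in the collagen differences was not tested. In bulk tissue, fewer cells of a type and less RNA per cell cannot be told apart.

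The basement membrane class held 5 tested members, all chains of type IV collagen. Its summed level was 249 ± 52.8 FPKM in the males and 177 ± 25.8 FPKM in the females (SD, n = 5 per sex), with 199 to 329 and 152 to 206 FPKM, so the ranges overlapped. Of the 5 chains 4 had a negative log2 fold change, and 2 had an unadjusted p under 0.05 and were lower in females (against 8.07% of all genes tested).

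Col4a1 had the highest mean of the collagen genes in both sexes, though in females the median of Col4a4 (59.2 FPKM) lay above that of Col4a1 (56.0 FPKM). It was at 108, 78.0, 108, 144 and 92.5 FPKM in the males and at 79.4, 56.0, 74.8, 41.9 and 50.3 FPKM in the females, and only male 2 lay below a female, female 1. Col4a2, whose product joins that of Col4a1 in 1 triple helix, was at 73.2, 51.5, 74.0, 97.5 and 62.0 FPKM in the males and at 56.8, 39.6, 55.2, 30.8 and 33.1 FPKM in the females. For both, male 4 was the highest library and female 4 the lowest. The log2 fold changes were -0.82 (SE 0.20, limma adjusted p = 0.0639) and -0.75 (SE 0.21, limma adjusted p = 0.102), with exact permutation p of 0.0159 and 0.0238.

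Col4a4, a chain of the glomerular network, was at 48.8, 59.2, 61.2, 68.5 and 27.6 FPKM in the males and at 51.0, 43.9, 59.2, 76.2 and 59.5 FPKM in the females. The sexes overlapped throughout, with medians of 59.2 FPKM in both, and female 4, lowest for Col4a1, was the highest of the 10 libraries. The log2 fold change was 0.17 (SE 0.23, exact permutation p = 0.611). Col4a5, on the X chromosome, was between 15.5 and 19.5 FPKM in the males and between 11.6 and 17.0 FPKM in the females, and its neighbour Col4a6 was at 0.427 to 0.909 and 0.264 to 0.663 FPKM. Their log2 fold changes were -0.19 and -0.53, and neither passed the test.

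Ratios between chains of a library do not depend on its depth. Col4a1 to Col4a2 was nearly constant, at 1.46 to 1.52 in males and 1.36 to 1.52 in females (exact permutation p = 0.0635). Col4a4 to Col4a1 was at 0.454, 0.759, 0.568, 0.476 and 0.298 in males 1 to 5 and at 0.643, 0.785, 0.792, 1.82 and 1.18 in females 1 to 5. All but male 2 were below all females, and in females 4 and 5 Col4a4 exceeded Col4a1. The mean log2 ratio was higher in females by 0.99 (exact permutation p = 0.0159, and 0.0794 after Benjamini-Hochberg adjustment over the 5 ratios tested). This ratio was chosen after the levels of both chains were seen, so its p values are a description only. Leaving out any library gave 0.76 to 1.15. The 8 podocyte markers all had a positive log2 fold change (median 0.32, none with an adjusted p of at most 0.05 by limma), with sums between 160 and 229 FPKM in the males and between 167 and 264 FPKM in the females, and their part in this ratio was not tested.

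**Figure D3:**
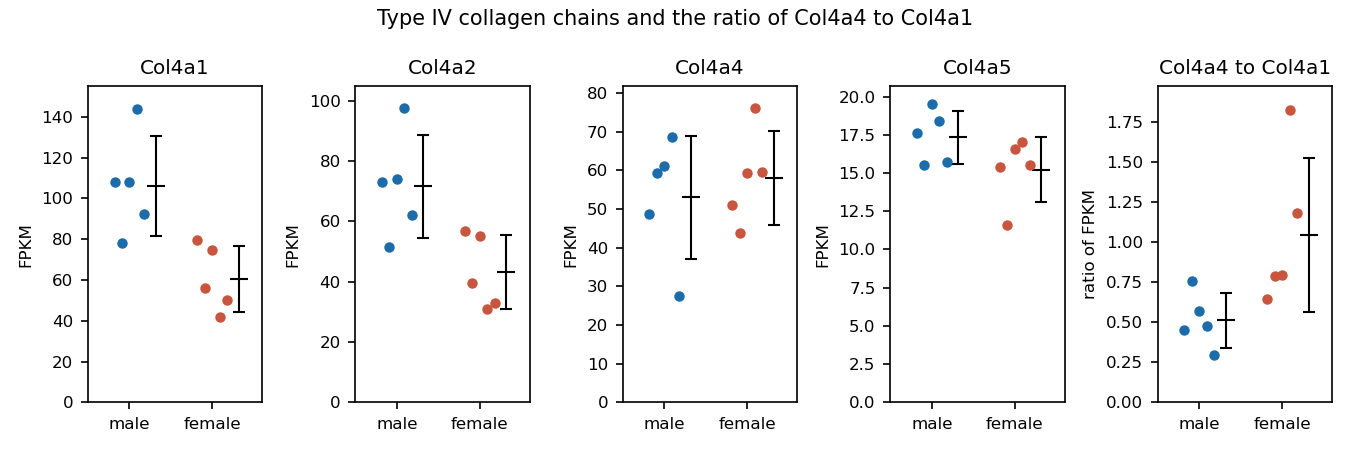
FPKM of the type IV chains Col4a1, Col4a2, Col4a4 and Col4a5 and, in the last panel, the ratio of Col4a4 to Col4a1 (vertical axes from 0), with 1 point per rat and the mean ± SD beside the points (n = 5 per sex). The ranges of the sexes overlap in every panel, the means of Col4a1 and Col4a2 sit lower in females without passing the adjusted test, and the ratio reaches 1.82 in female 4 against at most 0.759 in males.

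None of the 5 ratios tested had ranges that were separate between the sexes. Col1a1 to Col1a2, chains that join 2 to 1 in type I collagen, was at 1.34 to 2.09 in males and spread from 1.45 to 4.61 in females, highest in females 2 and 4 (exact permutation p = 0.175). Col3a1 to Col1a1 was at 2.40 to 3.41 and 1.85 to 2.81 (exact permutation p = 0.103). Col6a1 to Col6a2 was at 1.26 to 1.37 in males and 1.06 to 1.38 in females (exact permutation p = 0.262).

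The beaded filament class is type VI collagen, which forms fine filaments around cells. Of its 5 members 4 were tested, and the class sum was 52.6 ± 6.18 FPKM in the males and 34.7 ± 8.44 FPKM in the females (SD, n = 5 per sex), without overlap. Col6a1 was at 28.9, 19.4, 24.5, 23.8 and 24.9 FPKM in the males and at 12.7, 18.8, 17.1, 6.27 and 11.2 FPKM in the females. Col6a2 was at 21.1, 15.4, 18.6, 17.8 and 19.1 FPKM in the males and at 9.19, 14.4, 13.6, 5.92 and 8.93 FPKM in the females. In both, every female lay below every male, with male 2 and female 2 nearest to each other (exact permutation p = 0.00794 for each). Their limma adjusted p were 0.0868 and 0.0638. They were 0.0404 and 0.0273 without female 2 and 0.0654 and 0.0685 without female 4, and reached 0.188 and 0.152 with another library left out.

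Of the chains that can take the third place in type VI collagen, Col6a5 was at 1.92, 1.61, 2.12, 1.53 and 1.81 FPKM in the males and at 1.20, 1.69, 1.47, 0.984 and 1.14 FPKM in the females (exact permutation p = 0.0317, limma adjusted p = 0.215). Only female 2 reached the male range, and the exact p rose above 0.05 in 3 of 10 cases with 1 library left out. Col6a6 had means of 8.05 ± 1.70 and 9.74 ± 2.85 FPKM (SD, n = 5) in males and females and a log2 fold change of 0.25, which did not pass the test. Col6a4 had 4 to 17 reads per library and was below the level for testing.

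FACIT collagens attach to the surface of fibrils. Of the 9 members 7 were tested, 3 of these had an unadjusted p under 0.05 and were lower in females (against 8.07% of all genes tested), and the class sums between 22.6 and 29.0 FPKM in the males and between 9.45 and 23.2 FPKM in the females overlapped through female 2. Col12a1, a FACIT of tissues under tension, was at 20.2, 16.7, 18.3, 18.1 and 18.2 FPKM in the males and at 11.8, 18.7, 12.4, 6.37 and 8.57 FPKM in the females. Female 2 was within the male range and the other females were below it (log2 fold change -0.75, exact permutation p = 0.0397, limma adjusted p = 0.133). The adjusted p was 0.0207 without female 2 and 0.201 without female 4, and was above 0.05 in 9 of 10 cases with 1 library left out. Col16a1 was at 4.23, 2.63, 3.28, 3.35 and 3.62 FPKM in the males and at 2.91, 2.15, 2.39, 0.917 and 1.83 FPKM in the females (log2 fold change -0.79, exact permutation p = 0.0159, limma adjusted p = 0.162).

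Col14a1, the third FACIT member with an unadjusted p under 0.05, had means of 1.72 ± 0.610 FPKM in the males and 1.06 ± 0.236 FPKM in the females (SD, n = 5 per sex), with a log2 fold change of -0.62, an unadjusted limma p of 0.0300 and a limma adjusted p of 0.252. Col9a1, Col9a2, Col20a1 and Col22a1 had means under 0.7 FPKM and log2 fold changes between -0.60 and 0.25. Col19a1 and Col9a3 were below the level for testing. Col9a3 was at 0.127, 0.106, 0.0340, 0.262 and 0.131 FPKM in the males, at 0 in females 1, 2 and 4, and at 0.0290 and 0.123 FPKM in females 3 and 5. That is at most 11 reads in a male and 4 in a female, too few for more than a value (exact permutation p = 0.0317).

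The network and anchoring class held type VIII collagen, a hexagonal network of vessel walls, type X, and type VII, the anchoring fibril that ties basement membranes to the stroma. All 3 tested members had an unadjusted p under 0.05 and were lower in females (against 8.07% of all genes tested), and the class sums between 9.52 and 11.9 FPKM in the males and between 3.46 and 8.61 FPKM in the females did not overlap. Col7a1 was at 0.650, 0.452, 0.567, 0.540 and 0.568 FPKM in the males and at 0.162, 0.410, 0.252, 0.0863 and 0.158 FPKM in the females. Only female 2 came near the males, the male mean was 2.60 times the female mean, and the log2 fold change was -1.14 (SE 0.29), or -0.36 with a pseudocount of 1 FPKM. The limma adjusted p was 0.0696. It was 0.0220 without female 2 and 0.127 without female 4, and was above 0.05 in 9 of 10 cases with 1 library left out.

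Col8a2 was at 5.93, 5.49, 4.83, 5.16 and 4.93 FPKM in the males and at 3.95, 4.67, 4.82, 2.88 and 3.49 FPKM in the females, separate by a narrow margin between male 3 and female 3. Col8a1 was at 5.26, 3.53, 5.04, 5.94 and 6.07 FPKM in the males and at 4.47, 3.29, 2.60, 0.496 and 1.55 FPKM in the females, a wide spread in which female 4 was the lowest. Their log2 fold changes were -0.42 (SE 0.14) and -1.30 (SE 0.46), with exact permutation p of 0.00794 and 0.0159 and limma adjusted p of 0.174 and 0.194. Without female 4 the log2 fold change of Col8a1 was -0.85. Col10a1, the collagen of growth plate cartilage, was at 0.0634, 0.0527, 0.102, 0.166 and 0.163 FPKM in the males and at 0.0292, 0.0348, 0.116, 0 and 0 FPKM in the females, or 0 to 7 reads per library. It overlaps Nt5dc1 on the other strand, which had a mean of 10.8 FPKM, and since the strand setting of the counting is not given in the sources used here, their reads cannot be told apart.

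Multiplexins are basement membrane proteoglycans whose ends can be cut off as endostatin and like fragments. Col18a1 was at 58.5, 38.0, 53.1, 68.1 and 53.0 FPKM in the males and at 48.6, 35.7, 42.5, 26.0 and 33.1 FPKM in the females. It was among the 5 highest collagen genes in each sex, its ranges overlapped, and its log2 fold change was -0.55 (SE 0.18, exact permutation p = 0.0317, limma adjusted p = 0.167). The exact p rose above 0.05 in 6 of 10 cases with 1 library left out.

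Col15a1, found at the junction of basement membrane and interstitium, was at 3.14, 1.75, 1.53, 2.13 and 1.52 FPKM in the males and at 1.07, 0.685, 0.812, 0.488 and 0.670 FPKM in the females. All females were below all males, and male 1 was the highest. It fell by 1.31 on the log2 scale (SE 0.24, limma adjusted p = 0.0166), with the male mean 2.70 times the female mean, from 34 to 191 reads per library. The adjusted p stayed at or under 0.0488 when any single library was left out, but with a pseudocount of 1 FPKM the log2 fold change was -0.77, short of the fold threshold. A second gene described as like the type XV chain, LOC100909752, lies on the same chromosome and could share reads with Col15a1, so the level of each alone is uncertain.

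Of the 5 transmembrane members 3 were tested. Col17a1 encodes a collagen of hemidesmosomes, which fasten epithelial cells to the basement membrane. It was at 0.409, 0.505, 0.488, 2.42 and 1.17 FPKM in males 1 to 5 and at 10.3, 4.93, 6.11, 7.06 and 7.55 FPKM in females 1 to 5. Every female was above every male, with male 4 the highest of the males and female 2 the lowest of the females. The female mean was 7.22 times the male mean, and Col17a1 rose by 2.98 on the log2 scale (SE 0.41, limma adjusted p = 0.00282). Leaving out any library gave 2.78 to 3.36, with adjusted p of at most 0.0113.

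Urothelium, an epithelium that carries Col17a1, can enter a kidney sample from the pelvis. Female 2 held the uroplakins Upk1a, Upk1b, Upk2 and Upk3a at 3.01, 1.76, 3.02 and 4.64 FPKM, and Upk3a was at 0 in the 9 other libraries. The sum of the 6 urothelial markers was 12.9 FPKM in female 2, 0.493 to 0.813 FPKM in the other females and 0.278 to 0.494 FPKM in males. Upk1a was at 0.108, 0.0894, 0.115, 0.121 and 0.0554 FPKM in males 1 to 5 and at 0.198, 3.01, 0.443, 0.188 and 0.365 FPKM in females 1 to 5, with every female above every male (exact permutation p = 0.00794, limma adjusted p = 0.213). That separation rests on few reads, with 1 to 3 in the males and 4 to 51 in the females. The 4 tested urothelial markers all had a positive log2 fold change (median 1.14), and none had an adjusted p of at most 0.05 by limma. Upk2 and Upk3a were at 0 in all males and reached the level for testing through female 2, so their signs were set by that filter. Upk1a averaged 0.0977 FPKM in males. The untested Krt5 had its higher mean in females (0.0845 against 0 FPKM) and the untested Upk3b in males (0.0548 against 0.0520 FPKM). The part of urothelium in the Col17a1 difference was not tested. Female 2 had the lowest Col17a1 of the females, and without it the log2 fold change of Col17a1 was 3.11 (limma adjusted p = 0.00563).

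The other transmembrane members were scarce. Col13a1 had means of 0.870 ± 0.316 FPKM in the males and 0.882 ± 0.147 FPKM in the females (SD, n = 5 per sex). Col23a1 had 1 to 7 reads per library under the identifier ENSRNOG00000046785. Under ENSRNOG00000003349 it was at 0.0237, 0.0394, 0.0762, 0.0533 and 0.0488 FPKM in the males and, in the females, at 0.0520 FPKM in female 2 and at 0 in the other 4, from at most 3 reads (exact permutation p = 0.0317). Col25a1 also had at most 3 reads. The unclassed Col28a1 was at 0.132, 0.141, 0.162, 0.113 and 0.234 FPKM in the males and at 0.191, 0.207, 0.207, 0.132 and 0.0550 FPKM in the females, with means of 0.156 and 0.159 FPKM, and Col26a1 had means of 0.163 and 0.113 FPKM.

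**Figure D4:**
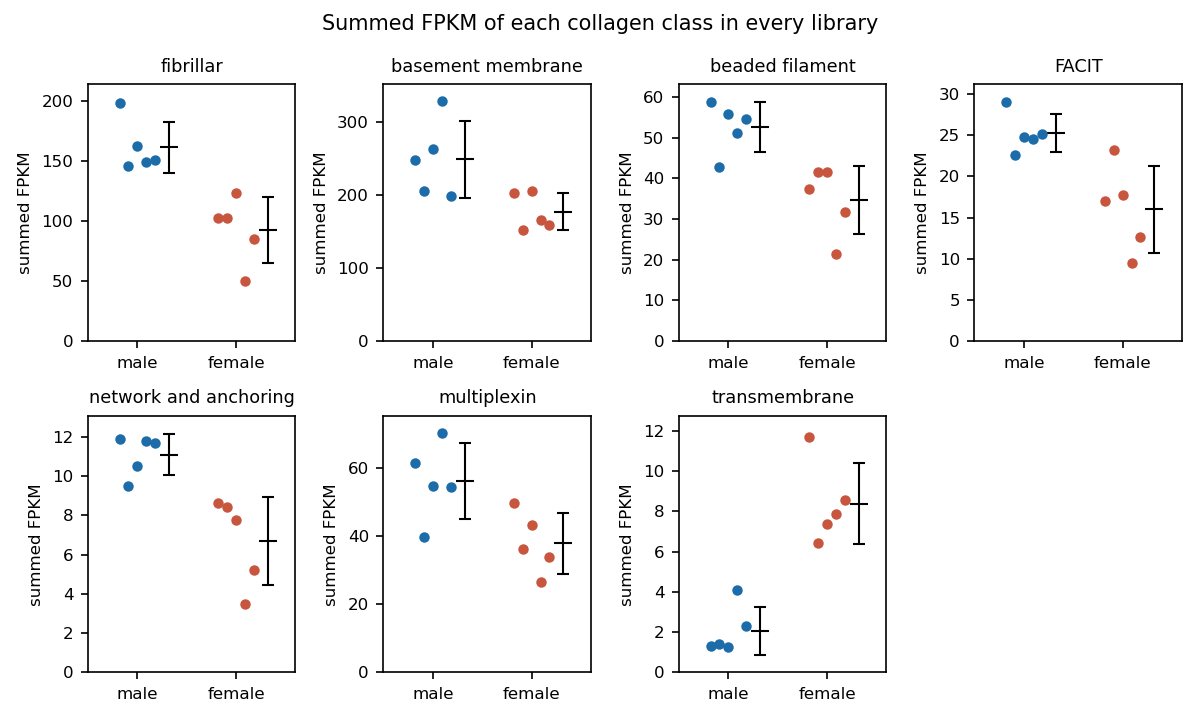
Summed FPKM of the members of each named collagen class, without the 2 unclassed members (vertical axes from 0), with 1 point per library and the mean ± SD beside the points (n = 5 per sex). Males lie above all females in the fibrillar, beaded filament and network and anchoring classes, females lie above all males in the transmembrane class, and the basement membrane, FACIT and multiplexin classes overlap. The transmembrane sums average 2.07 FPKM in males and 8.38 FPKM in females. Of this, Col17a1 makes up 0.997 and 7.20 FPKM and Col13a1 0.870 and 0.882 FPKM.

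By mean level, the 5 highest collagen genes in males were Col4a1 (106 FPKM), Col3a1 (81.8 FPKM), Col4a2 (71.6 FPKM), Col18a1 (54.1 FPKM) and Col4a4 (53.0 FPKM). In females the order was Col4a1 (60.5 FPKM), Col4a4 (58.0 FPKM), Col4a2 (43.1 FPKM), Col3a1 (39.5 FPKM) and Col18a1 (37.2 FPKM). The SDs, from 8.70 to 24.5 FPKM, were wider than the gap between most neighbours in these orders, as between Col18a1 and Col4a4 in males and between Col4a1 and Col4a4 in females.

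Genes that modify, cut, cross-link or bind collagen were then read as lists. Among 19 genes of procollagen modification and folding, none had an adjusted p of at most 0.05 by limma, and the median log2 fold change was -0.11. The lowest p were those of Colgalt2, a collagen galactosyltransferase (log2 fold change 0.44, adjusted p = 0.167), and Crtap, part of the prolyl 3-hydroxylase complex (-0.39, adjusted p = 0.223). Among 14 tested genes of procollagen processing and cross-linking, none had an adjusted p of at most 0.05 by limma, but 9 had an unadjusted p under 0.05, all lower in females (against 8.07% of all genes tested), and the median was -0.54. Adamts2, which removes the N-terminal propeptide, was at 3.06 ± 0.344 FPKM in the males and 1.56 ± 0.584 FPKM in the females (SD, n = 5 per sex) (log2 fold change -1.01, limma adjusted p = 0.0704). Loxl2, a lysyl oxidase that cross-links chains, was at 8.20 ± 0.835 and 4.61 ± 1.81 FPKM (SD, n = 5) (log2 fold change -0.91, limma adjusted p = 0.0930).

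Of 8 tested collagen receptors none passed the adjusted threshold by limma and 2 had an unadjusted p under 0.05 and were lower in females (against 8.07% of all genes tested). The lowest p were those of Mrc2, which takes up collagen for breakdown (log2 fold change -0.67, adjusted p = 0.0643), and Itga11, an integrin of fibroblasts (-0.91, adjusted p = 0.224), with a list median of -0.25. Of 14 tested fibril-associated entries none passed by limma, 5 had an unadjusted p under 0.05 and were lower (against 8.07%), 1 was higher (against 7.67%), and the median was -0.63. Fbn1, the fibrillin of microfibrils, was at 9.14 ± 1.40 FPKM in the males and 4.43 ± 1.59 FPKM in the females (SD, n = 5 per sex) (limma adjusted p = 0.0617). Fmod, a proteoglycan that binds fibrils, was at 0.777 ± 0.141 and 1.45 ± 0.423 FPKM (SD, n = 5), higher in females (limma adjusted p = 0.0873). Among 17 other basement membrane proteins 1 fell (against 1.14% of all genes tested), Nid1, the nidogen that links laminin to type IV collagen, with 50.3 to 68.8 FPKM in the males and 19.2 to 38.5 FPKM in the females (log2 fold change -0.94, limma adjusted p = 0.0212). In that list 3 genes had an unadjusted p under 0.05 and were lower (Nid1, Lama2 and Lama4, against 8.07% of all genes tested), and 1 was higher (Npnt, against 7.67%). The median of the list was -0.13, and the laminin chains stayed above the adjusted threshold.

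By likeness over the 10 libraries, the non-collagen genes closest to Col1a1 among 13338 with a mean of at least 1 FPKM were Lrp1, Lama2 and Htra3, each with Pearson's r = 0.97 on log2(FPKM + 0.1). Those closest to Col4a1 were Mfsd12 (r = 0.96), Ncapd2 (r = 0.95) and Slc39a1 (r = 0.95). The points share the difference between the sexes, but within males r was 0.93 to 0.99 for the genes of Col1a1 and 0.85 to 0.90 for those of Col4a1, and within females 0.94 to 0.96 and 0.91 to 0.94. These genes were picked for their likeness from many, so the values are a description.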

How the data were processed

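The sequencing provider mapped the reads to Rnor_6.0 of Ensembl with HISAT2, and the authors deposited 1 table of FPKM per gene with 1 column per rat. The submitters' processing notes also name fastp, StringTie 1.3.3b and featureCounts 1.5.0-p3, with HISAT2 2.0.5, and the strand setting of the counting is not given in the sources used here. FPKM are not counts, so the sexes were compared with limma 3.58.1 (lmFit and eBayes with trend, R 4.3.3) on log2(FPKM + 0.1) over every gene averaging 0.1 FPKM or more, with Benjamini-Hochberg adjustment. The pseudocount makes the fold change of low genes smaller. Whole reads were recovered from the FPKM and gene lengths for the depth. Single genes and ratios had a two-sided exact permutation test over rats, which had 252 assignments. Groups were taken from the sex in the labels. Because the rats were littermates, the p values assume an independence that the litters may limit.

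The members, classes and lists were chosen with earlier results of these data known. Values in every rat are given for members with an adjusted or exact p of at most 0.05, for members of the ratios and for the highest of each class. Of the other lists, genes with an adjusted p of at most 0.05 or else the 2 with the lowest p were named. Urothelial and other single genes outside this rule were named after their values were seen. Pathway and marker lists were matched by symbol without regard to case, and Lama3 and Hspg2 were not matched. Col4a3 was not matched by symbol, and the ratio of Col4a4 to Col4a1 was chosen in its place after the data were seen. The limma and limma-voom fits were tested on simulated counts of independent libraries. Promoters came from RefSeq on GRCr8, 1 window per gene, and were not mixed with coordinates of the table.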

Additional observations from a re-analysis of the deposited data

Results flagged for a closer look

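The gap of the highest or lowest rat to the nearest other rat of its sex was set against the range of that sex for the 27 members described rat by rat, which gave 54 groups of 5. A gap above 0.71 of the range was found in 2 of them, where chance alone gives about 1 in 20. Col9a3 was at 0.123 FPKM in female 5, against 0 to 0.0290 FPKM in the other females. Col23a1, under the identifier ENSRNOG00000003349, was at 0.0520 FPKM in female 2, against 0 in the other females. Both rest on at most 4 reads, so they are given as values only.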

How the results depend on the processing

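Col24a1, Col17a1 and Col15a1 kept an adjusted p of at most 0.05 in all alternatives and with any library left out, while Col3a1 and Col11a1 did not (0.0849 and 0.0662 with the replicate block). Among the alternatives, median-ratio scaling could change little, since the FPKM already had equal median ratios. A pseudocount of 1 FPKM brought the log2 fold change of Col15a1 from -1.31 to -0.77, so that it no longer passed both thresholds, and those of Col7a1, Col5a3, Col6a5 and Col11a2 to -0.36, -0.26, -0.29 and 0.14. The 5 members with an adjusted p of at most 0.05 became 11 with limma-voom on recovered reads and 3 with the replicate block, and leaving out 1 library gave 3 to 10 (10 without female 2, and 3 without any 1 male or female 5). The 4 past both thresholds became 3 to 7 with a library left out and 3 to 6 otherwise. The 23 with an unadjusted p under 0.05 ranged from 20 to 24 and from 21 to 26. For none of these fits was the share over all genes tested computed, so the changes cannot be read as particular to collagens. Deviations from the sex mean correlated at -0.097 to 0.071 between same-numbered rats, and at -0.13 to 0.119 over all pairs of a male and a female. These values show no closer likeness of same-numbered rats, but they do not settle whether the numbers follow litters. The replicate block left the ratio of Col4a4 to Col4a1 at 0.99 with a sign-flip p of 0.0625, the smallest that 5 pairs allow. Leaving out 1 library moved the log2 ratio of Col1a1 to Col1a2 between 0.34 and 0.76 (exact permutation p = 0.0476 without female 1), that of Col3a1 to Col1a1 between -0.32 and -0.17 (0.0476 without male 3), that of Col4a1 to Col4a2 between -0.10 and -0.06 (0.00794 without female 5) and that of Col6a1 to Col6a2 between -0.12 and -0.02 (0.0317 without female 1). Leaving out 1 library took the exact permutation p above 0.05 in 8 of 10 cases for Col5a3, Col9a3 and Col23a1 (ENSRNOG00000003349), 7 for Col11a2 and Col10a1, 6 for Col18a1 and 3 for Col6a5, with at most 0.111. Single genes were refitted only for the 27 members described rat by rat, and among these the sign turned for 2 that passed no test. For Col4a4 it was -0.05 to 0.28 on the log2 scale and -1.46 to 8.77 in FPKM with 1 library left out, negative without male 5. For Col28a1 the log2 fold change of -0.02 became 0.00 with a pseudocount of 1, 0.16 with quantile normalization and -0.09 to 0.16 with a library left out, and its FPKM difference ran from -0.0102 to 0.0279 with a library left out and -0.02 on the log2 scale. The causes were not tested. Scaling to reads outside the mitochondrial genome, chosen after seeing the data, left 3 past both thresholds and 4 by the adjusted p. The planned ratios with Col4a3 were not run. Depth limits the members with fewer than about 20 reads per library.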

Other observations

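Some collagen genes lay outside the rule. Col6a3, the third chain of common type VI collagen, is listed as a processed transcript and was at 11.8, 8.81, 11.1, 10.6 and 9.94 FPKM in males 1 to 5 and at 5.44, 6.97, 6.82, 3.56 and 4.76 FPKM in females 1 to 5. The ranges did not overlap, and it fell by 0.94 on the log2 scale (SE 0.17, limma adjusted p = 0.0163). LOC100909752, described as like the type XV chain, was at 2.04 ± 0.671 FPKM in the males and 1.05 ± 0.350 FPKM in the females (SD, n = 5 per sex) (exact permutation p = 0.0317). LOC100911572, described as like chain 3 of type IV collagen, begins head to head with Col4a4 on chromosome 9 under the identifier ENSRNOG00000015365. It was at 15.1 ± 5.39 FPKM in the males and 14.7 ± 3.63 FPKM in the females (SD, n = 5 per sex) (exact permutation p = 0.833), and a second entry of that name had at most 2 reads.

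Markers of other cell types were read in the same way. The 8 endothelial markers had sums between 177 and 231 FPKM in the males and between 168 and 246 FPKM in the females, with none at an adjusted p of at most 0.05 by limma. Of the 3 tested perirenal fat markers Cidec fell by 1.89 on the log2 scale (limma adjusted p = 0.00156, against 1.14% of all genes tested lower at this threshold), while Adipoq had its higher mean in females. The 6 proximal tubule markers went both ways, 3 with a negative and 3 with a positive log2 fold change (median 0.09). Cubn rose by 0.72 on the log2 scale (limma adjusted p = 0.0467), while Slc22a6 stood at -0.53 with an adjusted p of 0.160 by limma. The 6 collecting duct markers were all positive (median 0.40), and Avpr2 rose by 0.44 (limma adjusted p = 0.0469). Over all genes tested, 1.26% were higher at this threshold. The sums of the proximal tubule list were between 1445 and 2804 FPKM in the males and between 1466 and 2866 FPKM in the females, and those of the collecting duct list 295 to 476 and 341 to 537 FPKM.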
